A study of Mus musculus with 2 samples.

Results

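The genes described here are 9 of the 32285 genes counted in single-cell RNA libraries of the mouse retina. They were chosen by name as members of the NF-κB pathway, with earlier results of these data known. They are the subunits Rela, Relb, Nfkb1 and Nfkb2, the inhibitors of the IκB family Nfkbia, Nfkbiz and Bcl3, and the feedback genes Tnfaip3 and Birc3. All 9 were found among the counted genes by their Ensembl identifiers. Each was followed in spliced, ambiguous and unspliced unique molecular identifiers (UMIs, the count of captured RNA molecules) across 6 classes of retinal droplets in both libraries.

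One library came from a control pool and the other from a light damage pool, and each pool held the retinae of 3 to 5 mice. All mice were 6 to 9 weeks old, of both sexes, labelled WT, carried both Tgfbr2 alleles floxed and are described as functionally wild type. They were on a Balb-C/CD1 background and homozygous for the leucine variant of RPE65, an isomerase of the visual cycle. Control mice were dark-adapted, with 18 h of full darkness, whereas light damage mice were dark-adapted in the same way, exposed to white light of 5000 lx for 30 min and given 6 h of recovery under dim light. There was 1 library for each condition and hence no replicate and no test. The ranges in parentheses are 95% intervals for the counting of UMIs alone or, for shares of droplets, for the counting of droplets alone. The variation among mice or preparations is not part of them.

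NF-κB factors are dimers of REL-domain proteins that are kept in the cytoplasm of resting cells by IκB proteins. Cytokine receptors, pattern recognition receptors and cell stress activate IκB kinase, IκB is degraded, and the dimers enter the nucleus and bind κB sites. Among their targets are genes that end the response, above all Nfkbia, which encodes IκBα, and Tnfaip3, which encodes the ubiquitin-editing enzyme A20, so the RNA of these genes is widely used as a readout of the pathway. In the retina the pathway is best known for its part in the inflammatory response of glia, microglia and the retinal pigment epithelium (RPE).

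A κB site from a promoter of each of 3 members is printed because κB sites are what NF-κB dimers bind, and Nfkbia and Tnfaip3 are feedback targets. The promoter table of RefSeq (build GRCm38.p6) held 6 of the 9 members, namely Bcl3, Birc3, Nfkb2, Nfkbia, Rela and Tnfaip3, with 9 start sites in all, and it had no entry for Nfkbiz, Nfkb1 or Relb. In the 250 bases before each start, a loose pattern of GGG and CC with any 5 bases between them, read on both strands, was present in all 9 member promoters and in 45.8% of 32851 mouse promoters, so it sets these genes little apart. The stricter κB consensus, whose matches are all matches of the loose pattern as well, was present in 5 of the 9 member promoters, those of Nfkb2, Nfkbia and Tnfaip3, and in 7.25% of all promoters. Promoters of Tnfaip3 and Nfkb2 held further matches of this consensus, which are not printed. In the following stretches, written along the strand of the gene, the capitals mark the match.
Nfkbia, chr12:55492648-55492701, minus strand, match beginning 29 bases before the start: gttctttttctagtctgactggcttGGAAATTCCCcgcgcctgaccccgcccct
Tnfaip3, chr10:19015411-19015447, minus strand, match beginning 12 bases before the start: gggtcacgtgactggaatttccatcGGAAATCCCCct
Nfkb2, chr19:46304688-46304717, plus strand, match beginning 39 bases before the start: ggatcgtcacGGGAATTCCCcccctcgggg
The matches of Nfkbia and Tnfaip3 read GGGAATTTCC and GGGGATTTCC on the opposite strand, and the Nfkb2 match is the same on both strands. A match is a description of the letters and does not show that a factor was bound there in these cells.

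In the GENCODE annotation of the same build, Rela lies at chr19:5637483-5648130 on the plus strand, Nfkb2 at chr19:46304320-46312385 on the plus strand, Nfkb1 at chr3:135584655-135691547 and Nfkbia at chr12:55489410-55492647 on the minus strand. Relb at chr7:19606217-19629438 and Bcl3 at chr7:19808462-19822770 both lie on the minus strand of chromosome 7. Nfkbiz lies at chr16:55811375-55838899, Tnfaip3 at chr10:19000910-19015657 and Birc3 at chr9:7848699-7873186, all on the minus strand. Nfkb2 overlaps Psd and AC114539.1, and Bcl3 overlaps Gm16175 and Gm16174, in each case on the other strand, and the counting kept reads of the forward strand only.

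The control library held 30605284 UMIs and the light damage library 54413601, and 3669 and 5593 droplets passed the filters. Of these, 3593 and 5509 fell into the 6 classes, which were named from the number of marker genes detected in a droplet. Rods, the dim-light photoreceptors, were divided at an unspliced share of 25% of their UMIs into 2461 control and 1909 light damage droplets below it and 789 and 3137 above it. Rods between 20% and 30% made up 4.52% of control and 1.19% of light damage rods, so few droplets lay near the limit. The other classes were cone-like (137 control and 88 light damage droplets), RPE-like (158 and 307), Müller-like (36 and 29) and microglia-like (12 and 39). Among the 10 leading genes of these classes, 8 were markers of their own type in cone-like, 5 in RPE-like, 5 in microglia-like and 2 in Müller-like droplets, the last next to the vascular marker Flt1. In both libraries each of these classes contained all markers of its type except Best1, which was at 0 in the control RPE-like droplets. The droplets were named by these same markers, so the marker counts describe the classes and do not test their names. The libraries shared 7 barcodes among the kept droplets.

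Depth differed between the libraries and bears on each value. The median number of UMIs was 2709 in control and 3115 in light damage rods of low unspliced share and 3747 and 6142 in rods of high unspliced share. It was 3158 and 17079.5 in cone-like, 2623.5 and 6360 in RPE-like, 2597.5 and 21730 in Müller-like and 2983.5 and 10956 in microglia-like droplets. Levels are therefore given as CPM, the spliced and ambiguous UMIs of a gene scaled to a fixed total of such UMIs in the class, and a difference was counted when it reached 2-fold with at least 20 UMIs over both libraries. A gene at 0 UMIs in the control was set against 3 UMIs, and its fold is then given as a lower bound.

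In RPE-like droplets the whole set was higher after light damage. All 9 members had at least 20 UMIs there, and 9 of 9 were higher by at least 2-fold, against a background of 14.6% of the 9040 genes tested in these droplets. The members were chosen with earlier results of these data known, so this background is given for scale and is no test. The log2 ratio of light damage over control had a median of 2.59 among the members and of 0.08 among all genes tested. In Müller-like droplets 6 of the 7 members tested were higher (background 24.9% of 4622 genes), in rods of high unspliced share 4 of 7 (background 9.53% of 12060 genes) and in microglia-like droplets 3 of 6 (background 24.2% of 3633 genes). Among the Müller-like 6, Relb, Nfkbia and Tnfaip3 had 2 control UMIs each. A gene with at most 2 reaches 20 UMIs in that class only when it is higher by 2-fold. Their calls thus followed from being tested. In cone-like droplets 2 of 5 members were higher (background 16.8% of 8376 genes), and in rods of low unspliced share 2 of 6 (background 4.86% of 10314 genes). No member with at least 20 UMIs was lower by 2-fold in any class. The members had at most 6 control UMIs in Müller-like and 3 in microglia-like droplets. With so few, a member lower by 2-fold would not have reached 20 UMIs there. In RPE-like droplets only Rela, with 8 control UMIs, could have been counted as lower. The absence of lower members in these classes therefore says little. Of all genes tested, 2.88% were lower in rods of low and 4.58% in rods of high unspliced share, 3.81% in cone-like, 5.55% in RPE-like, 15.3% in Müller-like and 14.7% in microglia-like droplets.

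**Figure D1:**
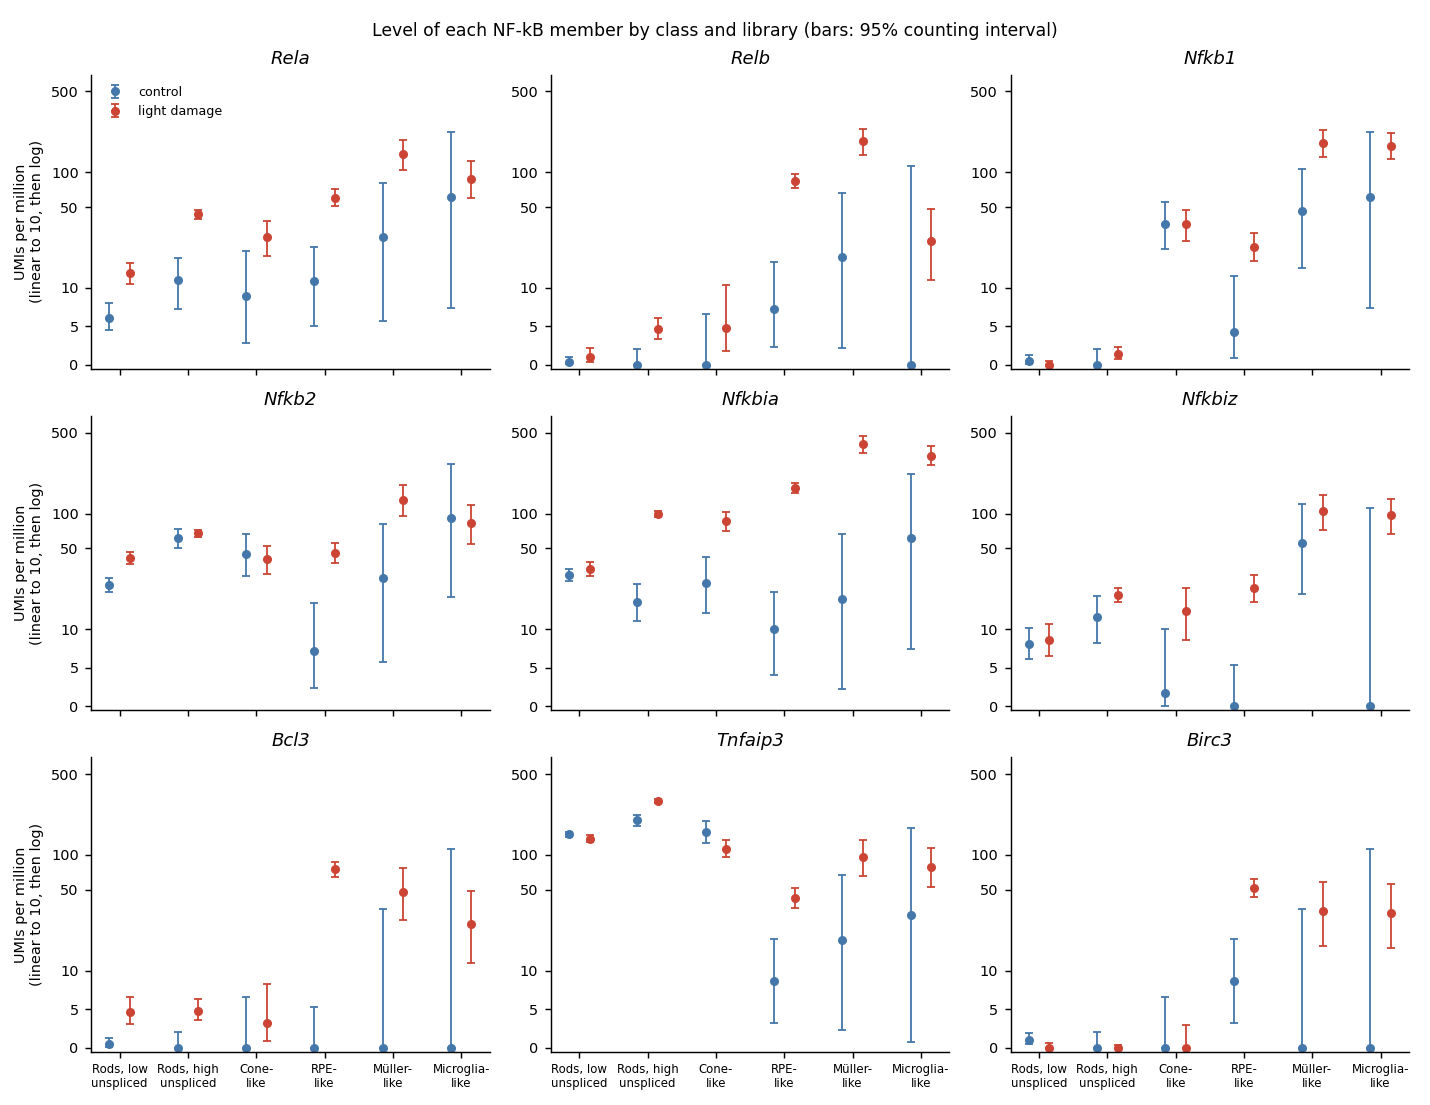
Level of each of the 9 members (vertical axis, spliced and ambiguous CPM, linear up to 10 and logarithmic above) in the 6 classes (horizontal axis) of the control (blue) and light damage (red) library, with 95% counting intervals as bars. In RPE-like droplets all 9 red points lie above the blue intervals, whereas Tnfaip3 is above 100 CPM in the rods of both libraries.

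Among the subunits, Rela, which encodes the transactivating subunit p65, was higher by at least 2-fold in 5 of the 6 classes. In RPE-like droplets it had 11.6 CPM (4.99 to 22.8) in the control and 60.4 (51.0 to 71.0) after light damage, from 8 and 146 UMIs, a 5.22-fold difference. In rods of high unspliced share Rela had 11.8 (7.28 to 18.0) and 43.1 (39.3 to 47.2) CPM, and in rods of low unspliced share 6.05 (4.47 to 8.00) and 13.4 (10.8 to 16.4). The intervals of both libraries were apart in each of these 3 classes. Müller-like droplets held 27.6 (5.70 to 80.7) and 143 (106 to 190) CPM, with only 3 UMIs behind the control value and a log2 ratio of 2.37 (0.74 to 4.70). Microglia-like droplets, with 2 and 31 UMIs of Rela, gave a log2 ratio of 0.53 (−1.45 to 3.63), an interval that spans both directions.

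Relb, the subunit of the non-canonical pathway and itself a known NF-κB target, had at most 5 UMIs in the control droplets of any class. It had 5 UMIs in control and 202 in light damage RPE-like droplets, that is 7.23 (2.35 to 16.9) and 83.5 (72.4 to 95.9) CPM, an 11.6-fold difference. In Müller-like droplets it had 2 and 62 UMIs, with a log2 ratio of 3.33 (1.41 to 6.40). Rods of high unspliced share had 0 UMIs in the control and 50 after light damage, at least 2.75-fold higher, whereas rods of low unspliced share had 3 and 7. After light damage the order of Relb was Müller-like, RPE-like, microglia-like, cone-like, rods of high and rods of low unspliced share. Of classes next to each other in that order, cone-like droplets and rods of high unspliced share had overlapping intervals.

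Nfkb1 and Nfkb2 encode the precursors p105 and p100, whose C-terminal parts act as IκB proteins and whose processed forms p50 and p52 bind DNA. Nfkb1 was close to 0 in rods, with 4 and 0 UMIs at low and 0 and 15 UMIs at high unspliced share, and all 4 control UMIs lay in 1 droplet. It had 4.34 (0.89 to 12.7) and 22.7 (17.1 to 29.6) CPM in RPE-like and 46.0 (14.95 to 107) and 179 (136 to 230) in Müller-like droplets, a log2 ratio of 2.39 (0.77 to 4.71) and 1.96 (0.66 to 3.63). In cone-like droplets Nfkb1 had 35.8 (21.9 to 55.3) and 35.3 (25.7 to 47.5) CPM, a log2 ratio of −0.02 (−0.81 to 0.82).

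Nfkb2 behaved differently from Nfkb1 in rods, where it was present in both libraries. Rods of low unspliced share had 24.1 (20.8 to 27.7) CPM in the control and 41.0 (36.3 to 46.1) after light damage, a log2 ratio of 0.77 (0.50 to 1.04). In rods of high unspliced share the values were 61.6 (50.6 to 74.2) and 67.6 (62.8 to 72.7), and their intervals overlapped. RPE-like droplets were the lowest of all classes for Nfkb2 in the control, with 7.23 (2.35 to 16.9), and reached 45.9 (37.8 to 55.3) after light damage, 6.35-fold higher. Müller-like droplets went from 27.6 (5.70 to 80.7) to 131 (95.3 to 176), but all 3 control UMIs came from 1 droplet.

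Nfkbia had the most UMIs of the 3 inhibitors after light damage in all 6 classes. In RPE-like droplets 7 control UMIs stood against 404 after light damage, or 10.1 (4.07 to 20.8) against 167 (151 to 184) CPM, a 16.5-fold difference. In Müller-like droplets 2 UMIs stood against 133, or 18.4 (2.23 to 66.5) against 396 (332 to 470) CPM, with a log2 ratio of 4.43 (2.55 to 7.49). Nfkbia was thus low in both classes in the dark-adapted retina, and its control interval lay below the light damage interval in each.

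In rods Nfkbia differed between the droplets of high and low unspliced share. Rods of high unspliced share had 17.4 (11.8 to 24.6) CPM in the control and 99.7 (93.8 to 106) after light damage, from 31 and 1081 UMIs, a log2 ratio of 2.52 (2.01 to 3.09). Rods of low unspliced share had 29.5 (25.9 to 33.5) and 33.3 (29.1 to 37.9), a log2 ratio of 0.17 (−0.10 to 0.44), so a difference of 2-fold lies outside the counting interval. The 2 log2 ratios have intervals that do not overlap. Of the 3137 light damage rods of high unspliced share, 638 held an Nfkbia UMI and none held more than 7, so the sum did not come from a few droplets. Microglia-like droplets had 61.1 (7.40 to 221) and 318 (262 to 382) CPM, from 2 and 112 UMIs, with a log2 ratio of 2.38 (0.49 to 5.44).

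Bcl3, an atypical IκB protein that binds p50 and p52 homodimers in the nucleus, was absent from the control droplets of 5 classes. In RPE-like droplets it had 0 UMIs in the control, where 3 UMIs would be 4.34 CPM, and 183 UMIs after light damage, or 75.7 (65.1 to 87.5) CPM, at least 17.4-fold higher. These 183 UMIs lay in 80 of 307 droplets, with at most 9 in 1 droplet. Rods of high unspliced share had 0 and 52 UMIs (at least 2.86-fold higher), and rods of low unspliced share 4 and 31 UMIs, with a log2 ratio of 3.22 (1.72 to 5.19). All 4 control UMIs of the latter were in a single droplet. In Müller-like droplets Bcl3 had 0 and 16 UMIs, under the minimum of 20 UMIs. Microglia-like and cone-like droplets had 9 and 4 UMIs after light damage and 0 in the control.

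Nfkbiz encodes IκBζ, another nuclear IκB protein, which is needed for a subset of secondary response genes. It was at 0 UMIs in control RPE-like droplets and at 55 after light damage, 22.7 (17.1 to 29.6) CPM and at least 5.24-fold higher. Müller-like droplets, by contrast, held it in the control as well, with 55.3 (20.3 to 120) and 104 (72.7 to 145) CPM and a log2 ratio of 0.92 (−0.35 to 2.46). In rods Nfkbiz had 8.02 (6.19 to 10.2) and 8.62 (6.54 to 11.1) CPM at low and 12.9 (8.16 to 19.3) and 19.7 (17.2 to 22.6) at high unspliced share. In microglia-like droplets it had 0 and 34 UMIs, a bound of 1.05-fold. The control value of rods of low unspliced share rests on 65 UMIs, 28 of them in 1 droplet, and without the droplet of most UMIs in each library the log2 ratio was 0.84 in place of 0.10.

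That droplet stands apart from the other control rods. It held 49655 spliced and ambiguous UMIs, 134 of the 135 Tnf UMIs and 76 of the 79 Irf1 UMIs of its class, and all 4 Nfkb1 and all 4 Bcl3 UMIs, 7 of the 8 Birc3 UMIs and 17 of the 239 Nfkbia UMIs. Among microglia markers it contained 8 UMIs of Ctss, while C1qa, C1qb, C1qc, Cx3cr1, Tyrobp, P2ry12, Csf1r, Fcer1g and Trem2 were at 0. It was kept as a rod by the marker rule, and whether it held another cell was not tested.

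Tnfaip3 had its highest values in the photoreceptor classes, and rods carried it already in the dark-adapted retina. Rods of low unspliced share had 150 (142 to 159) CPM in the control and 139 (130 to 148) after light damage, from 1219 and 934 UMIs, a log2 ratio of −0.12 (−0.24 to 0.01). Rods of high unspliced share had 200 (180 to 222) and 292 (282 to 303), a log2 ratio of 0.55 (0.39 to 0.71). The UMIs of Tnfaip3 were spread over 661 of 2461 and 584 of 1909 droplets of low and 184 of 789 and 1416 of 3137 droplets of high unspliced share. In the control the 3 photoreceptor classes, cone-like droplets with 159 (128 to 196) among them, had overlapping intervals with their neighbours. These neighbours included microglia-like droplets, whose 30.6 CPM rested on 1 UMI. After light damage cone-like (113 CPM) and Müller-like droplets (95.4 CPM) had overlapping intervals, so the order of these classes is not settled.

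In RPE-like droplets Tnfaip3 had 8.67 (3.18 to 18.9) CPM in the control and 42.6 (34.8 to 51.7) after light damage, 4.91-fold higher. In Müller-like droplets it had 18.4 (2.23 to 66.5) and 95.4 (65.2 to 135), with a log2 ratio of 2.37 (0.40 to 5.48) over 2 and 32 UMIs. RPE-like droplets thus stayed below both rod classes in either library, although they were the ones with the higher ratio. Cone-like droplets had 159 and 113 (95.3 to 134) CPM, a log2 ratio of −0.49 (−0.89 to −0.09), and this value moved with the treatment of free RNA as described further on.

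Birc3 encodes cIAP2, a ubiquitin ligase of the TNF receptor complex and a target of NF-κB. It was measured mainly in RPE-like droplets, with 8.67 (3.18 to 18.9) CPM in the control and 52.1 (43.4 to 62.0) after light damage, from 6 and 126 UMIs, a 6.01-fold difference. Of the 6 control UMIs, 5 lay in 1 droplet, and without the droplet of most UMIs in each library the log2 ratio was 5.01 in place of 2.59. After light damage the 126 UMIs lay in 44 of 307 droplets. Müller-like and microglia-like droplets each had 0 UMIs in the control and 11 after light damage. Rods of high unspliced share had 0 UMIs of Birc3 in both libraries, where 3 UMIs after light damage would be 0.277 CPM, and cone-like droplets had 0 in both as well.

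The 11 microglia markers summed to 136 CPM in control and 106 in light damage RPE-like droplets, with 9 and 5 of them at 0. C1qa, Cx3cr1, P2ry12, Fcer1g and Trem2 were at 0 in both, and C1qb, C1qc, Ctss and Tyrobp were at 0 in the control and detected after light damage, where the droplets were deeper. Their part in the result was not tested. In Müller-like droplets the same markers summed to 18.4 and 11.9, with 9 and 10 of 11 at 0. The 9 Müller markers summed to 19220 CPM in control and 7071 in light damage Müller-like droplets. The 12 RPE markers summed to 142761 and 112698 in RPE-like droplets. Whether the droplets of a class were alike in both libraries was not tested. The 8 vascular markers summed to 50.6 and 44.7 in RPE-like droplets, with 5 and 2 of them at 0, Cdh5 in both libraries. In Müller-like droplets they summed to 1888 and 1830, with 3 of 8 at 0 in each library, Cdh5 and Acta2 in both. Kdr, Flt1, Rgs5 and Pdgfrb were detected in both libraries of the Müller-like droplets, and their part in the result was not tested. Rod-only genes put the share of free RNA at 9.63% and 6.91% of RPE-like and 8.90% and 5.12% of Müller-like UMIs. With the expected free RNA subtracted, the log2 ratios of the 9 members in RPE-like droplets were between 2.32 (Rela, Nfkbiz) and 4.32 (Nfkbia), and the same 9 were higher by at least 2-fold.

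For cone-like and control microglia-like droplets the free RNA was a larger part. In the control cone-like droplets 73.7% of the UMIs were estimated as free RNA, against 42.1% after light damage, and in the control microglia-like droplets 47.8% against 4.47%. In cone-like droplets Nfkbia had 25.1 (13.7 to 42.1) and 86.0 (70.4 to 104) CPM and Rela 8.95 (2.91 to 20.9) and 27.3 (18.9 to 38.2), with log2 ratios of 1.78 and 1.61. Without the droplets for which at least 50% of UMIs were estimated to be free RNA, the log2 ratio of Nfkbia was 0.60 and that of Tnfaip3 0.62, and no member was higher by 2-fold. With the expected free RNA subtracted, Nfkbia had a log2 ratio of 2.87, Tnfaip3 of −1.67 and Nfkb1 of −1.03. The values of Tnfaip3, Nfkb1 and Nfkbia in cone-like droplets thus moved with the treatment of free RNA. In microglia-like droplets the log2 ratio of Nfkbia was 1.95 (−0.16 to 5.67) after subtraction and 1.23 (−0.66 to 4.29) without the droplets of high free RNA share. After subtraction Nfkbia thus stayed past 2-fold with an interval that included 0, whereas Nfkb1 had 0.72 and Tnfaip3 0, both under 2-fold. The Nfkb1 and Tnfaip3 intervals in these droplets, −0.44 to 4.56 and −1.22 to 6.73, had included 0 before subtraction as well.

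**Figure D2:**
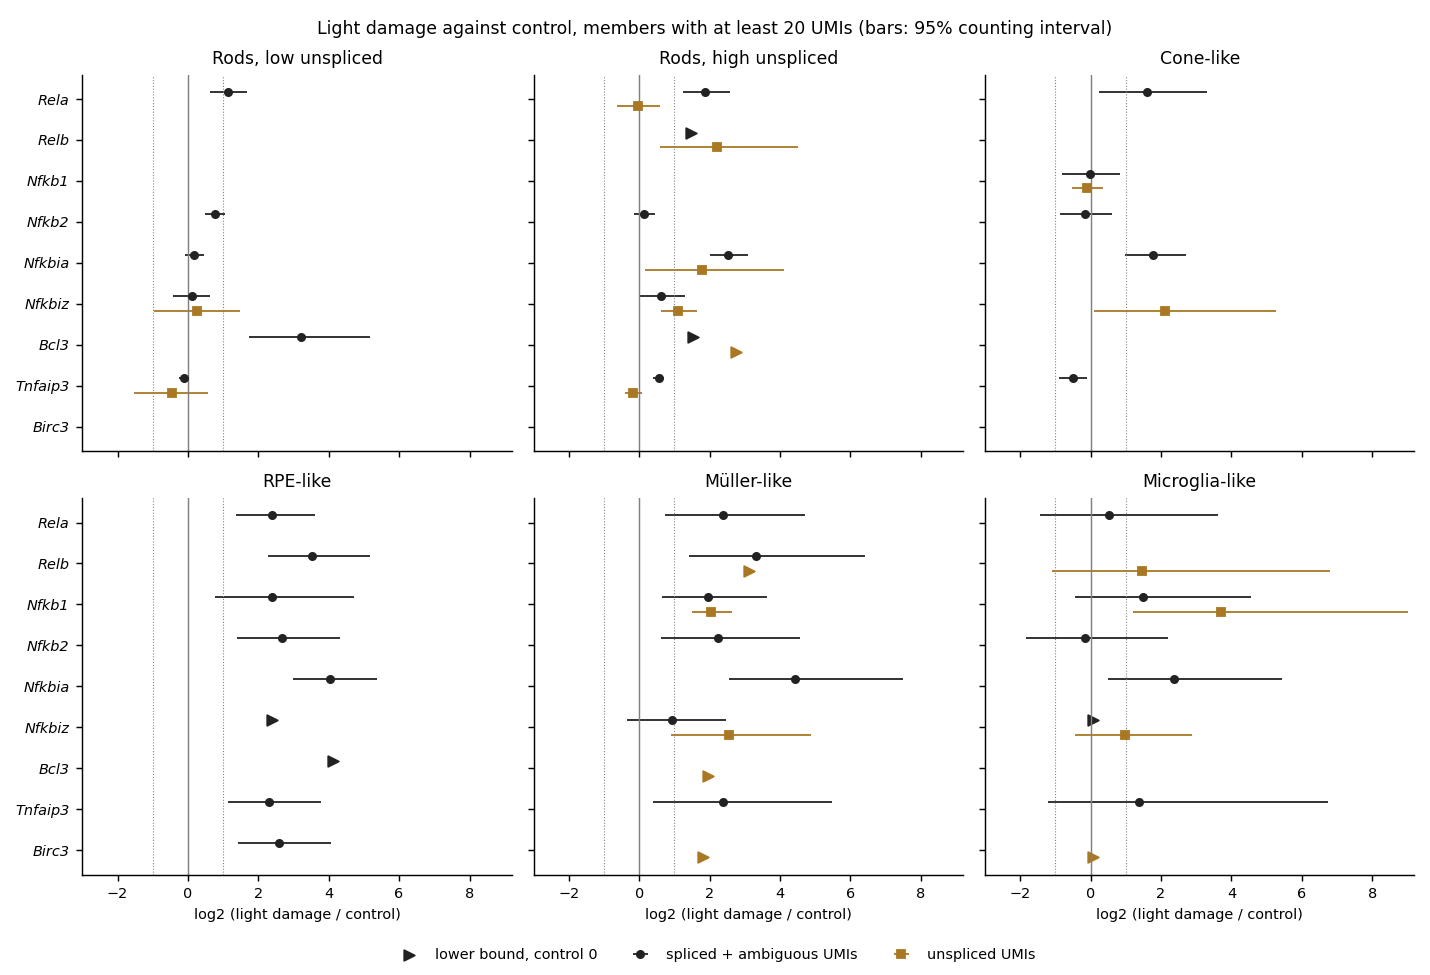
Log2 ratio of light damage to control (horizontal axis) of the members (vertical axis) in the 6 classes, for spliced and ambiguous UMIs (black) and unspliced UMIs (brown), shown where both libraries together had at least 20 UMIs. Bars are 95% counting intervals, triangles are lower bounds for genes at 0 in the control, and dotted lines mark 2-fold. In RPE-like droplets all black points lie beyond 2-fold, and in rods of high unspliced share Rela is beyond it in spliced and near 0 in unspliced UMIs.

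Unspliced UMIs come from transcripts that still hold intron sequence, and their CPM refer to the UMIs of all kinds. In rods of high unspliced share 4 of the 6 members tested were higher by at least 2-fold in unspliced UMIs, against a background of 7.24% of 13884 genes, and none was lower (background 7.01%). Bcl3 had 0 UMIs in the control and 115 after light damage, at least 6.75-fold higher, and its unspliced UMIs outnumbered the spliced and ambiguous ones, at 68.9% of its UMIs. Relb had 3 and 78 unspliced UMIs, a log2 ratio of 2.20 (0.59 to 4.50), and Nfkbia 3 and 59, a log2 ratio of 1.79 (0.17 to 4.11). For Nfkbiz the unspliced level was 8.95 and 19.4 CPM, a log2 ratio of 1.11 (0.62 to 1.65), next to 0.62 (−0.01 to 1.30) in spliced and ambiguous UMIs.

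Rela and Tnfaip3 behaved differently in these rods. Rela had 28 and 154 unspliced UMIs, a log2 ratio of −0.05 (−0.63 to 0.59), while its spliced and ambiguous UMIs had 1.88 (1.25 to 2.58). Tnfaip3 had 40.8 and 36.3 unspliced CPM, from 164 and 829 UMIs, a log2 ratio of −0.17 (−0.41 to 0.08), next to 0.55 (0.39 to 0.71) in spliced and ambiguous UMIs. In both genes the intervals of the 2 kinds of UMI were apart.

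In Müller-like droplets all 5 members tested in unspliced UMIs were higher by at least 2-fold, against a background of 24.8% of 3947 genes, and 20.2% of genes were lower. Nfkb1, the longest member gene, had 29 and 342 unspliced UMIs, or 125 and 514 CPM, a log2 ratio of 2.04 (1.49 to 2.64), next to 1.96 (0.66 to 3.63) in spliced and ambiguous UMIs. Relb, Bcl3 and Birc3 had 0 unspliced UMIs in the control and 75, 33 and 30 after light damage, at least 8.73-fold, 3.84-fold and 3.49-fold higher. A gene at 0 in these control droplets reaches 20 UMIs only when it is past 2-fold against 3 UMIs, so these calls followed from being tested. Nfkbiz had 3 and 50, a log2 ratio of 2.54 (0.91 to 4.87). In microglia-like droplets Nfkb1 had 1 and 160 unspliced UMIs, a log2 ratio of 3.70 (1.20 to 9.02), and it was 1 of 2 members higher among the 4 tested (background 23.8% of 2378 genes, with 10.1% lower). The other was Relb, with 1 and 34 UMIs and a log2 ratio of 1.47 (−1.11 to 6.81). In cone-like droplets 1 of 2 members tested was higher (background 25.2%, with 3.6% lower), namely Nfkbiz with 2 and 22 unspliced UMIs and a log2 ratio of 2.12 (0.10 to 5.25). With 2 control UMIs Nfkbiz could reach 20 UMIs there only when higher by 2-fold. In rods of low unspliced share neither Nfkbiz nor Tnfaip3, the only members tested, was past 2-fold (backgrounds 5.4% higher and 8.68% lower). No member reached 20 unspliced UMIs in RPE-like droplets (backgrounds 52.8% higher and 3.48% lower of 1636 genes), where the median unspliced share was 3.86% and 3.85% of all UMIs.

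Since the droplets of the light damage library were deeper, the share of droplets with members was also taken after every droplet had been thinned to 1500 UMIs. Of the RPE-like droplets, 5.77% (2.67% to 10.7%) in the control and 42.7% (37.1% to 48.4%) after light damage then held a UMI of at least 1 member, and 0.641% (0.0162% to 3.52%) and 13.4% (9.76% to 17.7%) held UMIs of at least 2. Without thinning, 15.2% and 62.5% held at least 1, and 6 of 158 and 133 of 307 droplets held at least 2. Of the Müller-like droplets, 4 of 36 (11.1%) and 16 of 29 (55.2%) held at least 1 member after thinning, against 36.1% and 100% before. The intervals of both libraries were apart in these 2 classes, as they were for at least 1 member in both rod classes. For at least 2 members they were also apart in rods of high unspliced share, 0.515% (0.141% to 1.31%) and 3.95% (3.30% to 4.69%). In rods of low unspliced share these overlapped. The intervals count droplets of 1 library, which are not replicates.

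Rods showed a smaller difference, with 20.1% (18.5% to 21.7%) and 26.3% (24.4% to 28.4%) of droplets of low and 17.0% (14.4% to 19.8%) and 28.1% (26.5% to 29.7%) of droplets of high unspliced share. Before thinning these were 34.3% and 45.2% at low and 35.6% and 62.5% at high unspliced share. Tnfaip3 made up most of the rod droplets with a member, with 15.1% and 16.4% at low and 10.1% and 16.4% at high unspliced share after thinning, and 26.9% and 30.6% and 23.3% and 45.1% before. After thinning, an Nfkbia UMI was found in 2 of 156 control and 46 of 307 light damage RPE-like droplets and in 7 of 776 and 165 of 3137 rods of high unspliced share. Before thinning, it was found in 6 of 158 and 100 of 307 RPE-like droplets and in 2.92% and 20.3% of these rods. No class of the retina is known to lack these genes, so no share could be set against a negative class.

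**Figure D3:**
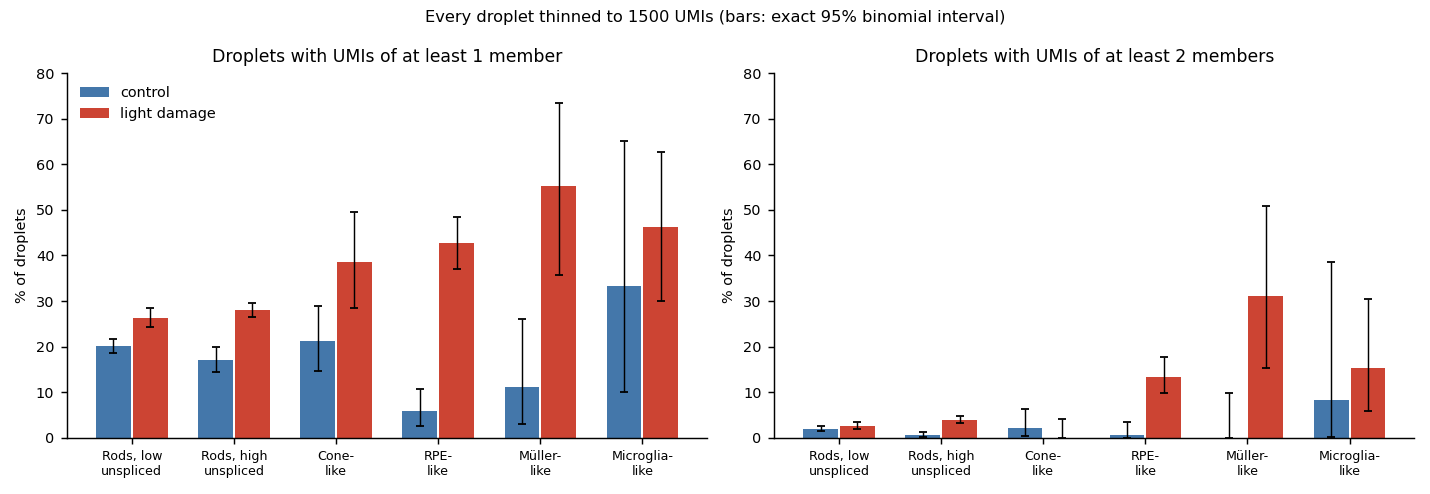
Share of droplets (vertical axis, percent) that held UMIs of at least 1 (left) or at least 2 (right) of the 9 members, by class (horizontal axis), in the control (blue) and light damage (red) library after thinning every droplet to 1500 UMIs. Bars carry exact 95% binomial intervals over droplets, which are not replicates. In RPE-like and Müller-like droplets and in rods of high unspliced share they do not overlap between the libraries in either panel.

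The other genes of the pathway were taken from 8 lists with 100 genes that had been chosen by function with earlier results of these data known. Of those tested, 28 of 63 were higher by at least 2-fold in RPE-like and 33 of 47 in Müller-like droplets, with 1 lower in each, beside backgrounds of 14.6% and 24.9% higher and 5.55% and 15.3% lower. A gene with at most 2 control UMIs in Müller-like droplets was tested only when higher by 2-fold. In rods of high unspliced share 15 of 58 were higher and 0 lower (backgrounds 9.53% and 4.58%), and in rods of low unspliced share 7 of 54 were higher and 5 lower (4.86% and 2.88%). In cone-like droplets 12 of 44 were higher and 0 lower (16.8% and 3.81%), and in microglia-like droplets 19 of 42 were higher and 4 lower (24.2% and 14.7%). Known targets of NF-κB were the list with the most genes tested in the glial and RPE-like classes. Of its 17 genes tested in each, 13 were higher in RPE-like, 15 in Müller-like and 8 in microglia-like droplets. The median log2 ratios, with bounds for genes at 0 in the control, were 2.95, 3.46 and 0.89. In rods 9 targets were tested, of which 3 were higher at high unspliced share (background 9.53%). At low unspliced share 1 was higher (Gadd45b, background 4.86%) and 1 lower (Irf1, background 2.88%).

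Rel, the remaining subunit, was higher in both rod classes and in RPE-like and Müller-like droplets. It had 12.9 and 32.9 CPM in rods of high unspliced share, a log2 ratio of 1.35 (0.75 to 2.03), and 5.78 and 27.3 in RPE-like droplets, a log2 ratio of 2.24 (0.81 to 4.16). In Müller-like droplets it had 0 UMIs in the control and 41 after light damage, at least 4.42-fold higher. Among the kinases Ikbkb, Chuk, Ikbkg and 8 others, 1 of 10 tested was higher in rods of low unspliced share (background 4.86%). In rods of high unspliced share 1 of 10 was higher (9.53%), and in cone-like droplets 2 of 10 (16.8%). It was 1 of 9 in RPE-like (14.6%), 1 of 5 in Müller-like (24.9%) and 1 of 3 in microglia-like droplets (24.2%). With so few tested, these counts do not set the kinases apart from all genes.

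The targets and regulators with the largest differences were not the same in each class. Gadd45b, a stress-induced gene that limits JNK signalling, was among the 3 with the largest rise in both rod classes and in RPE-like and Müller-like droplets. It had 14 and 941 UMIs in rods of high unspliced share, a log2 ratio of 3.47 (2.71 to 4.35), and 0 and 433 in RPE-like droplets, at least 41.3-fold higher. In rods it was followed by Tnip2, which encodes an A20-binding inhibitor, with log2 ratios of 1.97 (1.64 to 2.32) at high and 1.86 (1.53 to 2.21) at low unspliced share. Next came Tirap, an adaptor of Toll-like receptors, with a log2 ratio of 1.44 (1.07 to 1.82) at low unspliced share, and Ier2, an immediate early gene, with 1.96 (1.63 to 2.32) at high unspliced share. At low unspliced share Gadd45b had 73 and 451 UMIs, and 29 of the 73 were those of the single control droplet with Tnf.

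In RPE-like droplets Gadd45b was followed by the adhesion molecules Vcam1, with 0 and 377 UMIs (at least 35.9-fold higher), and Icam1, with 0 and 253 (at least 24.1-fold higher). The 377 UMIs of Vcam1 lay in 66 droplets. In Müller-like droplets Lif, a cytokine of photoreceptor survival, had 0 and 319 UMIs and Tnfrsf12a, the TWEAK receptor, 0 and 269, at least 34.4-fold and 29.0-fold higher, next to 0 and 360 for Gadd45b. Of the 319 Lif UMIs, 78 lay in 1 of 21 droplets. In microglia-like droplets the cytokines Il1b and Csf1 and the protease Plau had 0 UMIs in the control and 333, 290 and 245 after light damage, at least 10.3-fold, 8.98-fold and 7.58-fold higher. In cone-like droplets Tnfrsf12a (3 and 140 UMIs), the kinase Map3k8 (3 and 117) and Tirap (1 and 40) had log2 ratios of 4.39 (2.81 to 6.68), 4.13 (2.55 to 6.43) and 4.17 (1.60 to 9.50).

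Of the pathway genes tested, 5 of 54 were lower in rods of low unspliced share (background 2.88%). In RPE-like droplets 1 of 63 was lower (5.55%), in Müller-like 1 of 47 (15.3%) and in microglia-like 4 of 42 (14.7%). The 5 in rods were Tnf, Irf1, Malt1, Ripk2 and Zc3h12a. Of their control UMIs, 134 of 135 for Tnf and 76 of 79 for Irf1 were those of the single droplet described above. For Malt1, 33 of 65 control UMIs also lay in 1 droplet. Ripk2 had 69 and 25 UMIs and Zc3h12a 33 and 12, with log2 ratios of −1.20 (−1.92 to −0.52) and −1.19 (−2.28 to −0.20). Irak2 was lower in RPE-like droplets, with 43.4 and 18.2 CPM, where 16 of the 30 control UMIs lay in 1 droplet. The deubiquitinase Cyld was lower in Müller-like droplets, with 10 and 11 UMIs and a log2 ratio of −1.49 (−2.86 to −0.10). In microglia-like droplets Tnfsf12, Tax1bp1 and Sod2 were among the lower, with log2 ratios of −2.69 (−3.67 to −1.66), −1.82 (−2.57 to −1.01) and −1.05 (−2.04 to 0.09). Tnf had 0 and 77 UMIs there. The median log2 ratio of the class was −0.78 over the 506 genes with at least 10 UMIs in each library. Over all 3633 genes tested it was 0.06.

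**Figure D4:**
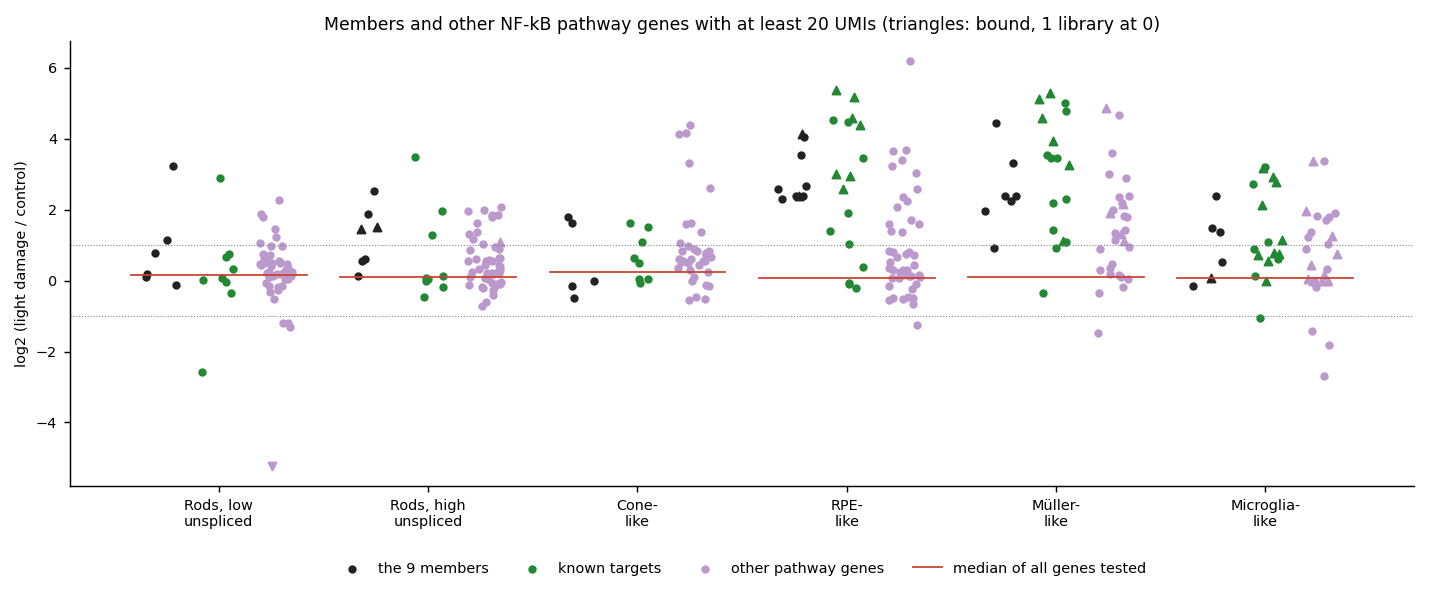
Log2 ratio of light damage to control (vertical axis) of the 9 members (black), known NF-κB targets (green) and other pathway genes (violet) with at least 20 UMIs in each class (horizontal axis). Triangles are bounds for genes at 0 in 1 library, the red line is the median of all genes tested in the class, and dotted lines mark 2-fold. In RPE-like and Müller-like droplets most black and green points lie above 2-fold, while the violet points of the rods lie mostly between the dotted lines.

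The likeness of levels was taken over the 12 points of 6 classes and 2 libraries among 9858 genes, as Pearson's r of log2(CPM + 10), and serves as a description only, since the points share libraries and depth. The closest to Bcl3 were Hmox1 (r = 0.95), which encodes heme oxygenase 1, and the leucine zipper factors Fosl2 (0.94) and Maff (0.94). Of the other members Birc3 (0.93), Relb (0.89) and Nfkbia (0.84) were nearest to Bcl3. The closest to Nfkbia were the translation factors Eif5 (0.93) and Etf1 (0.91) and the Y-linked helicase Ddx3y (0.92). The share of male mice in each pool is not given in the sources used here. Nfkbiz was closest to Map2k3 (0.96), Tfe3 (0.94) and Tbc1d10a (0.94). Tnfaip3 stood apart, with Aars2 (0.95), Pdia5 (0.95) and Hnrnpu (0.94) as the closest genes and r between −0.28 and 0.42 with the other 8 members.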

How the data were processed

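Retinal cells of the pools were loaded on 10x Genomics 3′ v3.1 chemistry after removal of dead cells with beads. The authors demultiplexed the reads with Cell Ranger 7.0.1 and mapped them with Salmon 1.10.1 and alevin-fry 0.8.1 to a spliced and intron index of mm10, on the forward strand only. The deposited counts are whole UMIs for each barcode and gene, in 3 kinds (spliced, unspliced, ambiguous), with no normalization and no filter on droplets. Genes carry Ensembl identifiers, of which 32235 of 32285 were named here from GENCODE vM21 on GRCm38.

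The inflection of the barcode rank curve set the minimum of UMIs per droplet, 1464 for the control and 1614 for light damage, and droplets of 10% or more mitochondrial UMIs were dropped. Scrublet's own threshold called 1 control and 0 light damage doublets, so the droplets with the highest scores, 0.8% per 1000 droplets, were left out instead (114 and 276). A droplet was assigned to cones, RPE, Müller glia or microglia when at least 5 markers of that type and of no other type were detected. A rod needed at least 6 rod markers and at most 3 of any other type. These limits were set after the numbers of detected markers had been seen. Bipolar and amacrine cells were left out of the classes. Barcodes with fewer than 50 UMIs served as free RNA, whose share was estimated from 6 rod-only genes in the other classes.

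UMIs were summed per class and library, with exact Poisson intervals for levels, exact conditional binomial intervals for log2 ratios and exact Clopper-Pearson intervals for shares, all at 95%. The summed spliced and ambiguous UMIs, which set the precision, ranged from 32726 in control microglia-like droplets to 10846483 in light damage rods of high unspliced share. The functions were tested on simulated data with known changes. No paired or replicate test was possible with 1 library per condition. The members and lists were chosen with earlier results of these data known. Named are the 9 members, in each class the 3 other pathway genes with the largest rise and the 3 with the largest fall by the interval end nearest 0 among those past 2-fold, and for Nfkbia, Nfkbiz, Tnfaip3 and Bcl3 the 3 genes of most similar level among genes with at least 200 UMIs. Rel was named as the remaining subunit and Tnf in microglia-like droplets after its values were seen. Ripk2 and Zc3h12a were named to give all pathway genes lower in rods of low unspliced share. Alternatives changed the minimum of UMIs per droplet, the mitochondrial limit, doublet removal, the treatment of free RNA, the UMIs counted, the total, the centring, the naming of classes by Leiden clusters, the minimum of UMIs per gene and the split of rods. Leaving out the droplet of most UMIs and thinning to 1500 UMIs were chosen after seeing the data. Scanpy 1.11.5 and leidenalg 0.10.2 were used for clusters, scipy 1.17.1 and numpy 2.4.6 for intervals, pandas 2.3.3 for tables and matplotlib 3.10.9 for plots, under Python 3.11.15.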

Additional observations from a re-analysis of the deposited data

Results flagged for a closer look

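The free RNA of barcodes under 50 UMIs, which was not itself compared between the conditions in the report, held more of 5 members after light damage than in the control, with intervals of the log2 ratio above 0. Of 9786 genes tested in free RNA, 18.2% were higher by at least 2-fold. That share rests on another rule than the interval, so the 5 members cannot be set against it. By the 2-fold rule with at least 20 UMIs, the higher members were Rela, Relb, Nfkbia, Bcl3, Nfkb1 and Nfkbiz. The intervals of Nfkb1 and Nfkbiz included 0. Rela had 3.97 and 43.5 CPM (5 and 111 UMIs), Relb 0.79 and 16.5, Nfkbia 24.6 and 72.5, Nfkb2 82.6 and 136.7, and Bcl3 0 and 21.2. The log2 ratio of Nfkb2 was 0.73 (0.41 to 1.06), under 2-fold. Tnfaip3 had 118 and 143 CPM in free RNA, with a log2 ratio of 0.28 (−0.0016 to 0.56).

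Tnfaip3 had a log2 ratio of −0.49 (−0.89 to −0.09) in cone-like droplets and of 2.30 (1.12 to 3.78) and 2.37 (0.40 to 5.48) in RPE-like and Müller-like droplets. With 1 library per condition, the difference between these classes was not tested.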

How the results depend on the processing

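Of 40 values of a member in a class, 26 were past 2-fold, and 22 of these were past it and 25 had the same sign under every alternative that gave a value (14 alternatives). The 9 members in RPE-like droplets were past 2-fold in each alternative in which they had enough UMIs. In rods of low unspliced share the count of 2 was 1 when centred on the median gene (Rela 0.98) and 4, with 1 of them lower, with no minimum of UMIs per gene. In cone-like droplets leaving out droplets of high free RNA share gave 1, which was Nfkb1 and lower, and subtracting free RNA gave 1 higher and 2 lower. In microglia-like droplets the count of 3 was 1 with free RNA subtracted. With droplets thinned to 1500 UMIs, where fewer genes reached 20 UMIs, the counts were 0 in cone-like, 5 in RPE-like, 0 in Müller-like and 0 in microglia-like droplets. Of the values past 2-fold none turned to the other sign, but Tnfaip3 in microglia-like droplets was 0 under 3 alternatives (free RNA subtracted, Leiden classes, droplet of most UMIs left out) and past 2-fold in 5 of 11. In Müller-like droplets 9 of 9 members were higher with unspliced UMIs added and 7 of 7 when centred or with Leiden classes, against 6 of 7, and none had enough UMIs after thinning. The causes were not tested. Over the genes with enough UMIs in each library, the median log2 ratio was 0.17 in rods of low unspliced share (9882 genes). It was −0.40 in Müller-like (2283 genes) and −0.78 in microglia-like droplets (506 genes). Over all genes tested, the medians of these 3 classes were 0.16, 0.09 and 0.06. No paired analysis was possible because each condition had 1 library, and no replicate could be left out. Depth limits most the control Müller-like and microglia-like droplets, where 3 UMIs are 27.6 and 91.7 CPM.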

Other observations

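Bipolar and amacrine droplets, 23 in the control and 17 after light damage, were too few for a comparison. Nfkbia had 2 and 7 UMIs in them, or 30.4 (3.68 to 110) and 42.2 (17.0 to 87.0) CPM, Tnfaip3 5 and 4 UMIs, Relb and Bcl3 each 0 and 3 UMIs, and Birc3 0 in both.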
